A study of Rattus norvegicus with 12 samples.

Results

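The genes described here belong to the Odf, Akap and Tekt families, which include genes for parts of the sperm tail, and were measured by RNA sequencing of rat testis. The members are the 10 genes whose symbol begins with Odf, Akap or Tekt in the study's table of 578 germ cell markers. They are Odf1, Odf3, Odf3b and Odf3l1, then Akap1, Akap3 and Akap4, and then Tekt1, Tekt2 and Tekt4. All 10 stand in the spermatid class of that table, beside 375 other spermatid markers, and they are 10 of 31512 genes and transcripts measured in all. RefSeq now names Odf3, Odf3b and Odf3l1 as Cimap1a, Cimap1b and Cimap1c.

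The 12 libraries came from whole testes of SD (Sprague Dawley) rats labelled with an age of 8 weeks, in 4 groups of 3 samples. The control group received no stress, although by the study's methods these rats were also kept without food and water while the others were stressed. The 3 stress groups, RS+IS_3D, RS+IS_14D and RS+IS_21D, were restrained every day and then made to swim in ice water, for 3, 14 or 21 days, and are called here the 3-day, 14-day and 21-day stress groups. The labels give the control group no time point and every group the same age, so that days of stress and age at sampling cannot be told apart between the stress groups. The study's methods name a control group for each duration, and do not say which of them gave these libraries. The labels do not say that the samples of a group are separate rats, while the study describes 3 biological replicates per group. The p-values measure the spread between these samples. The 3 comparisons with the control group share its 3 libraries.

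The sperm tail has a core of microtubule doublets, the axoneme, which is braced by tektin filaments. Around it lie the outer dense fibres and, along the principal piece, the fibrous sheath, in which A-kinase anchoring proteins hold protein kinase A. Many genes for these parts are read in spermatids, the haploid cells that build the tail, and many of their messages are stored before translation. Some axoneme genes listed below are spermatocyte markers in the study's table.

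Each library held 23908048 to 29404590 estimated counts, of which the members took 0.642% to 0.854%. Counts per member and library ran from 628 for Odf3b to 89923 for Odf1. The defining markers of spermatids (Tnp1, Tnp2, Prm3 and Acrv1), of spermatocytes (Sycp3, Sycp2, Piwil1 and Ldhc) and of spermatogonia (Stra8, Ccnd1 and Elavl2) were all above 0 in all 12 libraries. Replicates of 1 group differed by more than counting noise, with a chi-square per degree of freedom of 9.23 to 33.4, and no pair was a duplicate. Control library 1 stood apart from the other control libraries, at 33.4 and 30.5 against 12.9 between those, and 21-day library 1 stood at 24.1 and 17.3 against 13.3.

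Promoters were available in RefSeq (GRCr8) for 8 of the 10 members, all but Odf1 and Odf3l1. The 120 bases before the annotated start are shown for Akap3 and Akap4 of the fibrous sheath and for Odf3b, Tekt1 and Tekt2, since each of these sets shares a short motif. Capitals mark GTTGCC or its reverse complement GGCAAC, the letters of a half-site of the RFX factors that act on ciliary genes, and TGATGTCA or its reverse complement TGACATCA, a variant of the cyclic AMP response element. Akap3 lies at chr4:161377930-161378049 on the plus strand, and the other stretches lie on the minus strand, Akap4 at chrX:18117550-18117669, Odf3b at chr7:122326922-122327041, Tekt1 at chr10:57479122-57479241 and Tekt2 at chr5:143907725-143907844.
Akap3: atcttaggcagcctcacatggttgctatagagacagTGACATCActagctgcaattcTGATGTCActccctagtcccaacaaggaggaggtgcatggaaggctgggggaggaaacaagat
Akap4: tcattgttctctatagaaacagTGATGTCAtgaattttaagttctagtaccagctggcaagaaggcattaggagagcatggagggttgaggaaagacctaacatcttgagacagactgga
Odf3b: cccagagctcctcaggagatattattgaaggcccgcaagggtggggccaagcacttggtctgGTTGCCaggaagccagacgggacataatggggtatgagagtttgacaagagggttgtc
Tekt1: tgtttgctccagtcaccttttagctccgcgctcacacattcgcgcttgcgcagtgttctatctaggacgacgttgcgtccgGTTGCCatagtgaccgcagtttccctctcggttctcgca
Tekt2: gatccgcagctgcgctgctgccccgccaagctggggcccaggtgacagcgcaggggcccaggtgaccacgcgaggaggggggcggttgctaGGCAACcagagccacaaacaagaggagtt

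The letters GTTGCC were found, on either strand, in the 250 bases before the start of 3 of these 8 promoters, and in 9.89% of all 33469 RefSeq promoters. It begins 58 bases before the start in Odf3b, 39 in Tekt1 and 29 in Tekt2. TGATGTCA was found in Akap3 and Akap4, 2 of the 8, and in 3.8% of all promoters. It begins 98 bases before the start in Akap4 and, in Akap3, stands at 63 bases and again in reverse at 84 bases. That motif was searched after the sequences had been seen, so its share is a description of these promoters. Of the other motifs searched, CCAAT occurred in Odf3 and Akap1 (34% of all promoters) and TGACG in Tekt1 (18.2%), while the full response element TGACGTCA (1.59%) and the TATA box TATAAA (12.9%) were in none of the 8. TGACG lies within TGACGTCA, and none of the other motifs holds another. A match describes the letters in this window only.

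In the control group the members spanned from 39.8 TPM to 4290 TPM, where TPM, a share of all transcripts, is a level per transcript length. In falling order of the mean they were Odf1, Akap4, Akap3, Tekt1, Tekt2, Akap1, Tekt4, Odf3, Odf3l1 and Odf3b. No neighbours in this order had overlapping control ranges. Over all 12 libraries the order held in each library for 7 of the 9 neighbouring pairs, while Tekt1 was above Tekt2 in 10 libraries and Tekt4 above Odf3 in 9. Akap1 was read from 2 transcripts with 64.7% and 35.3% of its counts, and Akap3 from 2 with 98.5% and 1.46%. The other members had 1 transcript each.

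Odf1, the main protein of the outer dense fibres, had the highest level of the members in every library. It measured 3851, 4638 and 4381 TPM in the control libraries, 3809, 4092 and 3991 TPM after 3 days, 4667, 4325 and 4842 TPM after 14 days, and 4722, 5461 and 4975 TPM after 21 days. All 3-day libraries lay below all 14-day and all 21-day libraries. The 21-day libraries lay above the control libraries without overlap, while the 3-day and 14-day libraries overlapped them. The 21-day group was 1.32-fold above the 3-day group (log2 fold change 0.40 ± 0.09 SE, edgeR unadjusted p = 0.00314, Benjamini-Hochberg adjusted p = 0.17). The 14-day group was 1.19-fold above the 3-day group (0.25 ± 0.06 SE, unadjusted p = 0.00278, adjusted p = 0.236). Against control the 21-day difference was 0.27 ± 0.13 SE (edgeR unadjusted p = 0.075, adjusted p = 0.391). In edgeR this missed the study's criterion of an unadjusted p under 0.05. With DESeq2, the study's own tool, it passed (0.27 ± 0.12 SE, DESeq2 unadjusted p = 0.0309, adjusted p = 0.242).

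Odf3 codes for a microtubule-associated protein of the tail. Its libraries measured 129, 141 and 132 TPM in control, 130.2, 145 and 150.1 TPM after 3 days, 158, 151 and 159 TPM after 14 days, and 147, 147 and 162 TPM after 21 days. Every 14-day and 21-day library lay above every control library, and the 3-day libraries overlapped the control libraries. Odf3 passed the study's criterion against control at 14 days (1.16-fold, log2 fold change 0.21 ± 0.07 SE, edgeR unadjusted p = 0.0193, adjusted p = 0.346) and at 21 days (1.16-fold, 0.21 ± 0.08 SE, unadjusted p = 0.0375, adjusted p = 0.325). With the 14-day and 21-day libraries together against control it had the smallest p of the members (0.21 ± 0.06 SE, unadjusted p = 0.00473, adjusted p = 0.0898). Of the exact permutation test on TPM for that comparison, p = 0.0238 is the smallest it can give with 6 against 3.

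Odf3l1, a paralogue of Odf3, followed the same order of groups. It measured 121, 127 and 117 TPM in control, 116, 133 and 137 TPM after 3 days, 139, 142 and 138 TPM after 14 days, and 128, 129 and 140.0 TPM after 21 days. The 14-day and 21-day libraries were again all above the control libraries. It passed the criterion at 14 days against control (1.15-fold, 0.21 ± 0.06 SE on the log2 scale, edgeR unadjusted p = 0.0112, adjusted p = 0.311), and at 21 days its difference was 0.16 ± 0.07 SE (unadjusted p = 0.0693, adjusted p = 0.381). Odf3b, the third paralogue and the least abundant member, ranged over 37.8 to 43.1 TPM in control, 36.9 to 45.3 TPM after 3 days, 40.9 to 49.1 TPM after 14 days and 43.6 to 48 TPM after 21 days. Only its 21-day libraries were clear of the control libraries, and its 21-day difference was 0.24 ± 0.10 SE (edgeR unadjusted p = 0.0518, adjusted p = 0.356).

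**Figure D1:**
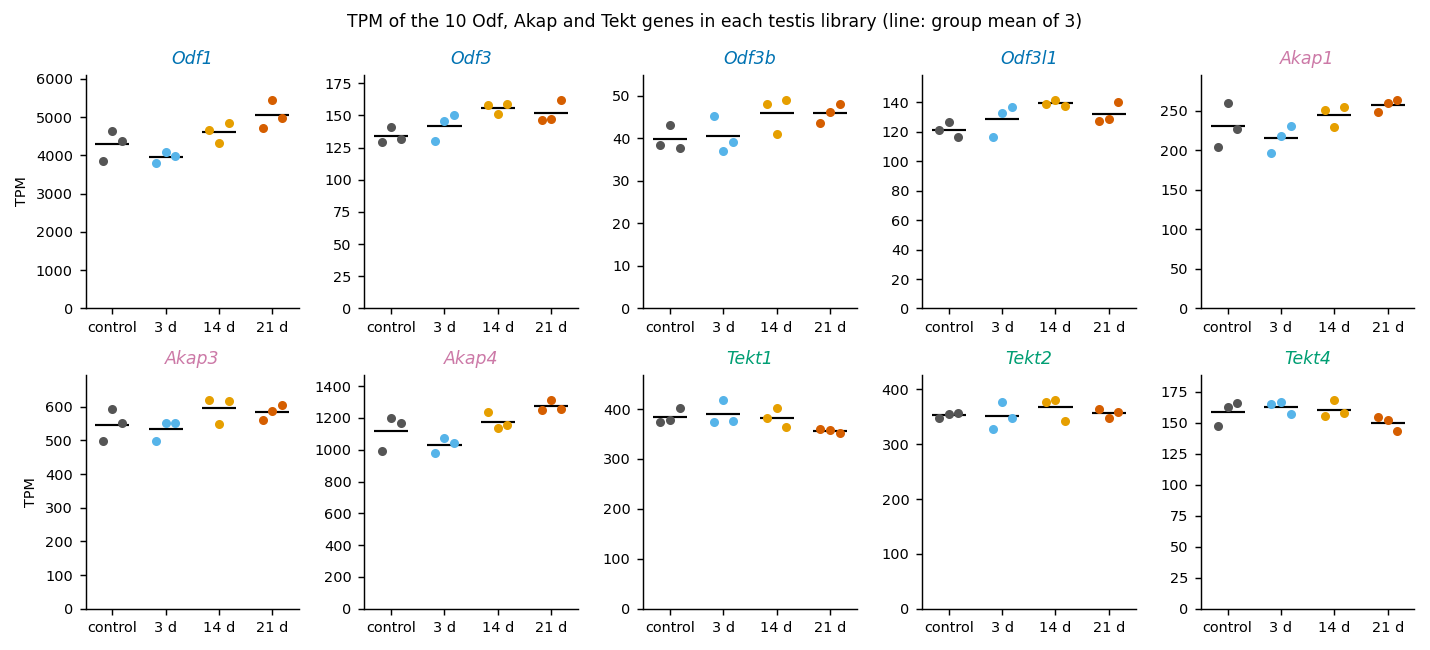
Level in TPM (vertical axes, each from 0) of the 10 members in each of 12 rat testis libraries, by group (horizontal axes), with 1 point per library and a line at the mean of 3. Odf1 and Akap4 are lowest in the 3-day group and highest in the 21-day group, while Tekt1 is lowest in the 21-day group.

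Akap4, the main structural protein of the fibrous sheath, was the second most abundant member. It measured 994, 1199 and 1166 TPM in control, 978, 1075 and 1041 TPM after 3 days, 1236, 1135 and 1157 TPM after 14 days, and 1251, 1313 and 1257 TPM after 21 days. The 21-day libraries lay above all other libraries, and the 3-day libraries below all 14-day libraries. Akap4 was 1.27-fold higher in the 21-day than in the 3-day group (log2 fold change 0.34 ± 0.07 SE, edgeR unadjusted p = 0.00183, adjusted p = 0.163), the lowest adjusted p of the members in that comparison. It was 1.15-fold higher in the 14-day than in the 3-day group (0.21 ± 0.05 SE, unadjusted p = 0.00437, adjusted p = 0.244). Its 21-day difference from control, 0.20 ± 0.12 SE, did not pass (unadjusted p = 0.128, adjusted p = 0.46).

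Akap1, which anchors protein kinase A at the outer mitochondrial membrane, measured 203, 259.9 and 227 TPM in control, 197, 219 and 231 TPM after 3 days, 251, 229.6 and 254 TPM after 14 days, and 248, 259 and 264 TPM after 21 days. The control libraries spread over most of the range of the other groups, and the 21-day libraries were clear of the 3-day libraries only. The 21-day group was 1.22-fold above the 3-day group (0.28 ± 0.08 SE on the log2 scale, edgeR unadjusted p = 0.00686, adjusted p = 0.181). Akap3, the other anchoring protein of the fibrous sheath, ranged over 497 to 593 TPM in control, 497 to 553 TPM after 3 days, 548 to 620.3 TPM after 14 days and 559.9 to 604 TPM after 21 days. In edgeR it passed the criterion in the 14-day against 3-day comparison alone, at 0.17 ± 0.07 SE (edgeR unadjusted p = 0.0383, adjusted p = 0.347). With DESeq2 it also passed at 21 days against 3 days (0.18 ± 0.08 SE, DESeq2 unadjusted p = 0.0207, adjusted p = 0.179). The share of Akap1 counts in its longer transcript ran from 62.1% to 67.3% over the 12 libraries.

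The tektins, filament proteins of the axonemal doublets, did not pass the criterion in any of the 7 comparisons in edgeR with the libraries scaled to all features, while with scaling to the other spermatid markers, a choice made after the values were seen, all 3 were lower at 21 days than at 3 days, as were 27.8% of all features. With limma on log2(TPM + 1) Tekt4 was lower at 21 days than at 3 days (log2 difference -0.12, unadjusted p = 0.0462, adjusted p = 0.29), beside 11% of all features, and with limma on log2(TPM + 0.1) likewise (-0.12, unadjusted p = 0.0482, adjusted p = 0.293), beside 11.1%. Tekt1 measured 375, 379 and 401 TPM in control, 375, 418 and 375 TPM after 3 days, 382, 402 and 365 TPM after 14 days, and 359.8, 358 and 352 TPM after 21 days. Its 21-day libraries lay below the libraries of every other group. The log2 fold change was -0.08 ± 0.08 SE against control (edgeR unadjusted p = 0.31, adjusted p = 0.629) and -0.09 ± 0.07 SE against the 3-day group (unadjusted p = 0.222, adjusted p = 0.538). 

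Tekt4 measured 147, 163 and 166 TPM in control, 165, 167 and 157 TPM after 3 days, 155, 168 and 158 TPM after 14 days, and 154, 152 and 144 TPM after 21 days. Its 21-day libraries were below the 3-day and the 14-day libraries and overlapped the control libraries. Its 21-day difference from the 3-day group was -0.08 ± 0.07 SE on the log2 scale (edgeR unadjusted p = 0.279, adjusted p = 0.593). Tekt2 ranged over 347 to 356 TPM in control, 327 to 376 TPM after 3 days, 343 to 381 TPM after 14 days and 347 to 363 TPM after 21 days, and overlapped in every comparison. Its coefficient of variation over the 12 libraries, 4.45%, was the lowest of the members, against 11.1% for Odf1.

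**Figure D2:**
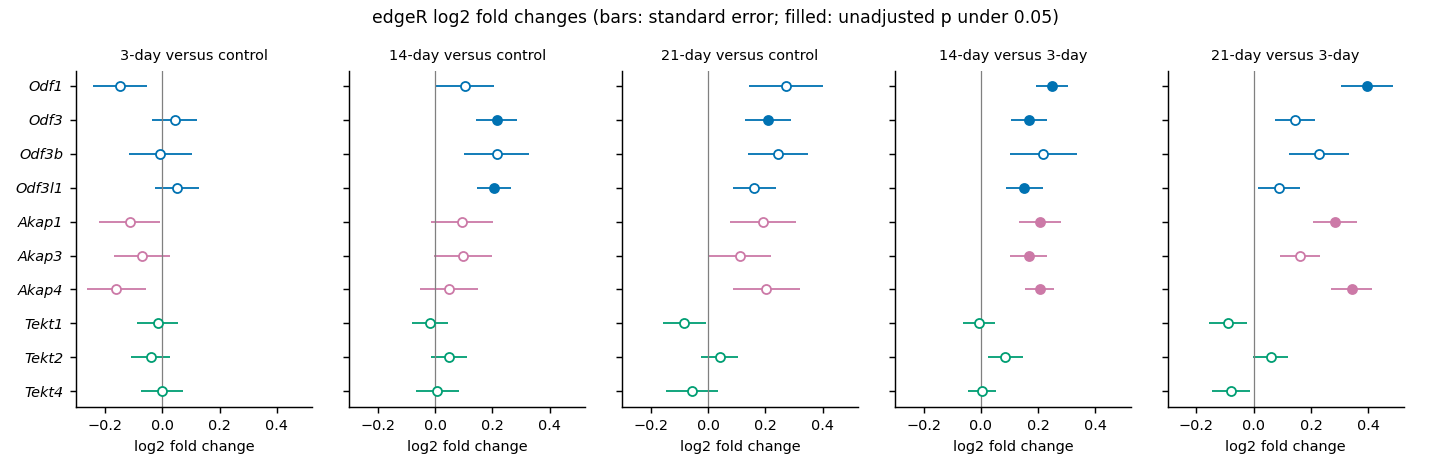
edgeR log2 fold changes (horizontal axes) of the 10 members (vertical axis) in 5 comparisons, with bars of 1 standard error and filled points at an unadjusted p under 0.05. In the 14-day against 3-day comparison 6 members pass, all Odf or Akap genes, and no Tekt gene passes in any panel of this edgeR fit.

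Over the 7 comparisons no member passed an adjusted p under 0.05 in edgeR with the libraries scaled to all features. In the 3-day against control comparison 0 members passed at an unadjusted p under 0.05, where 2.03% of all features tested were higher and 2.01% lower by that criterion and 0% passed the adjusted one. The members' log2 fold changes ran from -0.16 for Akap4 to 0.05 for Odf3l1. Without control library 1 this comparison gave 3 members past the criterion, all lower after 3 days, which were Akap4 at -0.26 ± 0.05 SE (edgeR adjusted p = 0.47), Odf1 at -0.23 ± 0.05 SE (adjusted p = 0.478) and Akap1 at -0.21 ± 0.08 SE (adjusted p = 0.695). In that fit 3.83% of all features were lower.

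At 14 days against control 2 members were higher (Odf3 and Odf3l1) and 0 lower, beside 7.19% of all features higher, 4.86% lower and 0% past the adjusted criterion. After 21 days against control 1 member was higher (Odf3) and 0 lower, beside 8.46% higher, 5.71% lower and 0.019% past the adjusted criterion. TPM ranges did not overlap for 2 members at 14 days, against 19.9% of all features, and for 6 members at 21 days, against 23.7%. These 6 were the 4 Odf genes and Akap4, all higher, and Tekt1, which was lower. The 21-day count was 5 with scaling to total counts, where 8.67% of all features were higher, and 5 with all 12 libraries in 1 fit, where 11.3% were higher. It was 0 without control library 1 or 3 and without 21-day library 2 or 3, and 3 without control library 2 or 21-day library 1, while 5.21% to 8.21% of all features were higher when each library was left out in turn. The 14-day count was 1 without control library 3 or without 14-day library 1 or 3, with 4.69% to 8.31% of all features higher over the libraries left out. With 3 libraries against 3 an exact permutation test of a single gene cannot give a p below 0.1.

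Between the stress groups every member past the criterion in edgeR, scaled to all features, was higher after the longer stress, whereas Tekt4 was lower with limma. At 14 days against 3 days 6 members were higher (Odf1, Odf3, Odf3l1 and the 3 Akap genes) and 0 lower, beside 7.73% of all features higher, 5.65% lower and 0% past the adjusted criterion. The TPM ranges of 4 members did not overlap there, against 21.7% of all features. Against 3 days, 3 members were higher at 21 days (Odf1, Akap4 and Akap1) and 0 lower, beside 8.23% higher, 8.32% lower and 0.00472% past the adjusted criterion, and 6 members did not overlap, against 26.3%. The count at 14 days was 2 without 14-day library 1 or 3 and 3 without 3-day library 1, with 5.26% to 7.37% of all features higher over the libraries left out. The count at 21 days was 6 without 21-day library 1, where 9.19% of all features were higher, and 5 with all 12 libraries in 1 fit, where 9.76% were.

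Between 21 and 14 days 0 members passed, beside 1.71% of all features higher, 1.35% lower and 0% past the adjusted criterion, and 3 members did not overlap (Akap4 higher, Tekt1 and Tekt4 lower), against 10.5% of all features. Without 21-day library 1, Akap4 alone passed, as higher, beside 2.01% of all features. With the 14-day and 21-day libraries together against control 3 members were higher (Odf3, Odf3l1 and Odf3b) and 0 lower, beside 11.1% higher, 9.29% lower and 1.73% past the adjusted criterion, and 2 members did not overlap, against 10.8%. The count was 6 without control library 2, beside 12.2% of all features. 

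With DESeq2, the tool the study used, members passed an adjusted p under 0.05 in 3 comparisons, all of them higher. For 21 days against 3 days these were Akap4 (log2 fold change 0.36 ± 0.08 SE, DESeq2 adjusted p = 0.000476), Odf1 (0.41 ± 0.09 SE, adjusted p = 0.00128) and Akap1 (0.30 ± 0.09 SE, adjusted p = 0.0151), beside 3.63% of all features with a DESeq2 adjusted p. At 14 days against 3 days they were Odf1 (0.25 ± 0.06 SE, adjusted p = 0.00332) and Akap4 (0.21 ± 0.06 SE, adjusted p = 0.0121), beside 3.17%. With both later groups against control they were Odf3 (0.21 ± 0.06 SE, adjusted p = 0.0199) and Odf3l1 (0.18 ± 0.06 SE, adjusted p = 0.0282), beside 5.3%. The sizes were close to those of edgeR.

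Of the 375 other spermatid markers, 172 were higher and 4 lower at 14 days against 3 days, where 7.73% of all features were higher and 5.65% lower. At 21 days against 3 days 174 were higher and 2 lower, where the shares of all features were 8.23% and 8.32%. Their median log2 fold change was -0.04 at 3 days against control, 0.10 at 14 days and 0.14 at 21 days, where the median over all features was -0.0086, -0.012 and -0.0031. Their summed level ran over 80829 to 98291 CPM (a share of the library's counts) in control, 82228 to 88751 CPM after 3 days, 92948 to 99617 CPM after 14 days and 96165 to 111091 CPM after 21 days. The 12 spermatogonia markers summed to 905 to 1069 CPM in control and 779 to 815 CPM after 21 days, and 5 of them were lower and 0 higher in that comparison, where 5.71% of all features were lower. The 181 spermatocyte markers, with 16 lower and 0 higher beside the same 5.71%, summed to 45461 to 52550 CPM in control and 45559 to 50059 CPM after 21 days. The part of these class differences in the members' values was not tested. From RNA of whole testis alone, fewer cells of a type and less RNA per cell cannot be told apart. By staining of sections, the study counted fewer Stra8-, Sycp3-, Piwil1- and Tnp1-positive cells after 14 and 21 days than in control or after 3 days. How these cell counts bear on the marker levels here was not tested.

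The place of each member within this class is given as a description, and no difference between families was tested. In the comparison of 21 days with control the log2 fold change of Odf1 was above that of 89.6% of the other spermatid markers, and those of Odf3b, Odf3 and Odf3l1 were above 82.4%, 72.8% and 56.5%. Akap4, Akap1 and Akap3 were above 71.5%, 66.9% and 35.7%. Tekt1 was above 1.87% of them, Tekt4 above 2.4% and Tekt2 above 16.5%. Against 3 days, Odf1 at 21 days was above 94.4% and Akap4 above 88.5%, while Tekt4 was above 5.6% and Tekt1 above 4.8%. The others lay between these, Akap1 at 79.2%, Odf3b at 66.7%, Akap3 at 49.1%, Odf3 at 44%, Odf3l1 at 32.3% and Tekt2 at 24.5%, so that the families overlapped.

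**Figure D3:**
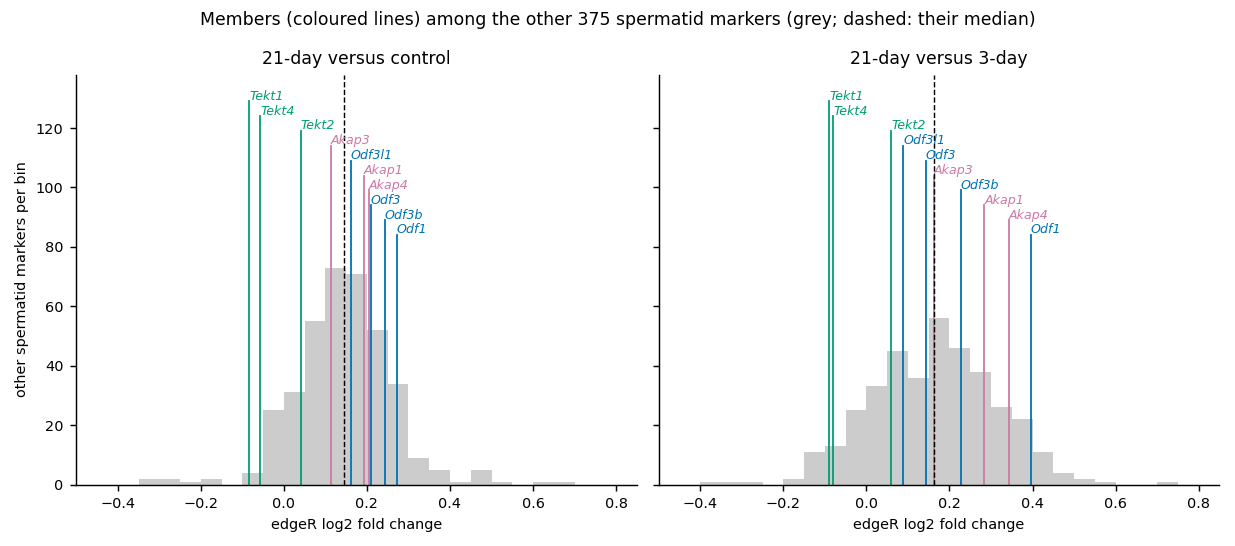
Histograms of the edgeR log2 fold changes (horizontal axes) of the 375 other spermatid markers, in numbers of markers per bin (vertical axis), with the members as coloured lines and the class median dashed, at 21 days against control (left) and against 3 days (right). Tekt1 and Tekt4 lie in the low tail of both histograms, below 0, and Odf1 lies in the upper part.

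Scaling the libraries to these 375 markers in place of all features, a choice made after the values were seen, put the median log2 fold change of all features at -0.16 for 21 days against control and at -0.19 for 21 days against 3 days. With this scaling 2 members were higher at 21 days than at 3 days (Odf1 and Akap4) and 3 lower (the 3 tektins), beside 2.31% of all features higher and 27.8% lower. The 3 of 10 members lower are near that share. Odf1 stood at 0.21 ± 0.04 SE (edgeR adjusted p = 0.0329), Akap4 at 0.16 ± 0.03 SE (adjusted p = 0.0298), Tekt1 at -0.27 ± 0.05 SE (adjusted p = 0.0293) and Tekt4 at -0.26 ± 0.06 SE (adjusted p = 0.0411). Tekt2, at -0.12 ± 0.05 SE, had an adjusted p of 0.156. In this fit 77 of 21203 features were higher and 2192 lower at an adjusted p under 0.05. At 21 days against control 1 member was higher (Odf1) and 2 lower (Tekt1 and Tekt4), beside 3.52% of all features higher and 17.9% lower, and the lowest adjusted p was 0.119, for Tekt1.

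Ratios within a library do not depend on the scaling, and they are given as a description. The ratio of Odf1 to Tekt1 in TPM was 10.3, 12.3 and 10.9 in control, 10.2, 9.78 and 10.6 after 3 days, 12.2, 10.8 and 13.3 after 14 days, and 13.1, 15.3 and 14.1 after 21 days. The ratio of Akap4 to Tekt1 was 2.65, 3.17 and 2.91 in control, 2.61, 2.57 and 2.77 after 3 days, 3.24, 2.83 and 3.17 after 14 days, and 3.48, 3.67 and 3.57 after 21 days. In both ratios the 21-day libraries lay above the control and the 3-day libraries. The ratio of Odf1 to Akap4, dense fibre to fibrous sheath, stayed within 3.76 to 4.19 over the 12 libraries.

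**Figure D4:**
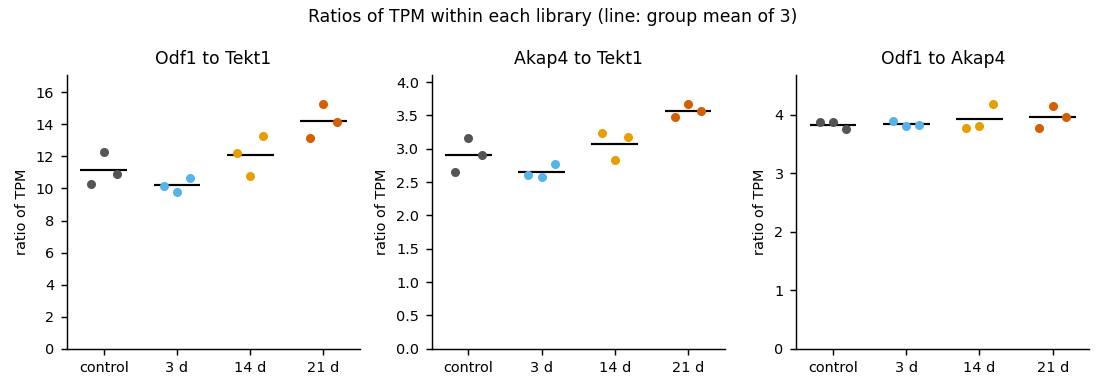
Ratios of TPM between 2 members within each of 12 libraries (vertical axes, from 0), by group (horizontal axes), with 1 point per library and a line at the mean of 3. Odf1 to Tekt1 averages 11.1 in control and 14.2 after 21 days, Akap4 to Tekt1 averages 2.91 and 3.57, and Odf1 to Akap4 averages 3.83 and 3.96.

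The members' log2 CPM values were also correlated over the 12 libraries. Pearson's r lay between 0.89 and 0.96 within the Akap genes, between 0.53 and 0.95 within the Odf genes and between 0.62 and 0.96 between those families. It lay between 0.38 and 0.80 within the tektins between -0.34 and 0.68 between Odf genes and tektins, and between -0.00097 and 0.74 between Akap genes and tektins. Tekt2 correlated more with Akap4 (0.74) and Odf1 (0.63) than with Tekt1 (0.56) or Tekt4 (0.38). These are descriptions over 12 libraries that share group and depth. The markers most like Odf1 were Spata32 (r = 0.99), Fam221b (0.98) and Reep6 (0.98), and 124 of the 568 other markers had r over 0.9 with it. Those most like Akap4 were Fam221b (0.98), Oaz3 (0.98) and Nt5c1b (0.98), with 101 over 0.9. Tekt1 had 0 markers over 0.9, and the nearest were Pttg1 (0.85), Morf4l1 (0.85) and Vps26a (0.84), all in the spermatocyte class.

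Other genes of the sperm tail among the markers were grouped by structure. In the fibrous sheath list, 6 of 8 genes were higher and 0 lower at 21 days against 3 days. Their median log2 fold change was 0.22 beside -0.012 over all features. Of all features 8.23% were higher and 8.32% lower. Of the other spermatid markers, which include these 8 genes, 46.4% were higher. Gapdhs, the glycolytic enzyme bound to the sheath, stood at 0.31 ± 0.08 SE (edgeR unadjusted p = 0.00719, adjusted p = 0.182), and Prkar2a, a regulatory subunit of protein kinase A, at 0.31 ± 0.07 SE (unadjusted p = 0.00345, adjusted p = 0.172). Cabyr, a calcium-binding sheath protein, stood at 0.19 ± 0.06 SE (unadjusted p = 0.0134, adjusted p = 0.207), and Fscb, the sheath protein that binds Cabyr, at 0.25 ± 0.07 SE (unadjusted p = 0.00986, adjusted p = 0.19). At 21 days against control 0 of the 8 passed, with a median of 0.19, beside 8.46% of all features higher and 5.71% lower.

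The next list holds the outer dense fibres and the connecting piece, which joins tail and head. In it 6 of 8 genes were higher at 21 days against 3 days and 8 of 8 at 14 days against 3 days. The medians were 0.24 and 0.20, and 0 were lower. Of all features 8.23% and 7.73% were higher in these comparisons. Of the other spermatid markers, which include these 8 genes, 46.4% and 45.9% were higher. Oaz3, a spermatid antizyme, stood at 0.44 ± 0.08 SE at 21 days against 3 days, Spatc1, or speriolin, at 0.39 ± 0.09 SE, Spem1, a spermatid maturation protein, at 0.38 ± 0.09 SE, and Pmfbp1, of the head-to-tail coupling, at 0.24 ± 0.06 SE. Of these, Spatc1 and Spem1 also passed against control at 21 days, at 0.30 and 0.31 (edgeR unadjusted p = 0.0277 and 0.0292, adjusted p = 0.297 and 0.301). Of all features 8.46% were higher in that comparison.

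In the axoneme list, the structure to which the tektins belong, 2 of 23 genes were higher and 0 lower at 21 days against 3 days, a share close to the 8.23% of all features higher, with a median of -0.025. These were Ccdc63, a relative of the proteins that dock outer dynein arms, at 0.21 ± 0.06 SE (edgeR unadjusted p = 0.00865, adjusted p = 0.187), and Fam166a, named here after its value was seen, at 0.22 ± 0.06 SE (unadjusted p = 0.00565, adjusted p = 0.178). Spag6 of the central apparatus stood at 0.08 ± 0.09 SE and Ribc1, a ribbon protein of the doublets, at 0.05 ± 0.05 SE, and neither passed. Of the 23, 1 was higher at 21 days than in control, beside 8.46% of all features, and their median was 0.05. That gene was Efhb, a protein of the doublet lumen, at 0.22 ± 0.06 SE (edgeR unadjusted p = 0.0103, adjusted p = 0.22). Of the 23, 12 are spermatid and 11 spermatocyte markers, whereas all genes of the sheath and dense fibre lists are spermatid markers. At 21 days against 3 days 46.4% of the other spermatid markers were higher and 0.533% lower. Of the spermatocyte markers 0.552% were higher and 24.3% lower. Both classes include genes of the axoneme list. The lists were not tested against each other.

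Of 9 genes of intraflagellar transport and the basal body, 0 were higher and 1 lower at 21 days against 3 days. Their median was -0.08, and of all features 8.23% were higher and 8.32% lower. The gene that was lower was Tctex1d2, a dynein light chain relative named here after its value was seen, at -0.15 ± 0.07 SE (edgeR unadjusted p = 0.0492, adjusted p = 0.3). Lztfl1, a regulator of ciliary trafficking, stood at -0.17 ± 0.07 SE (edgeR unadjusted p = 0.0554, adjusted p = 0.312), and did not pass, as did not Cby1 at 0.13, Arl13b at -0.02 and Ttc21b at -0.02. Of the 4 genes of the CatSper calcium channel 0 passed at 21 days against 3 days, beside the same shares of all features, with a median of -0.013. Catsper4 alone passed at 21 days against control, at 0.27 ± 0.11 SE (edgeR unadjusted p = 0.0427, adjusted p = 0.336), while Catsper2, Catsper3 and Efcab9 stood at -0.02, 0.01 and -0.0011. Of all features 8.46% were higher in that comparison.

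**Figure D5:**
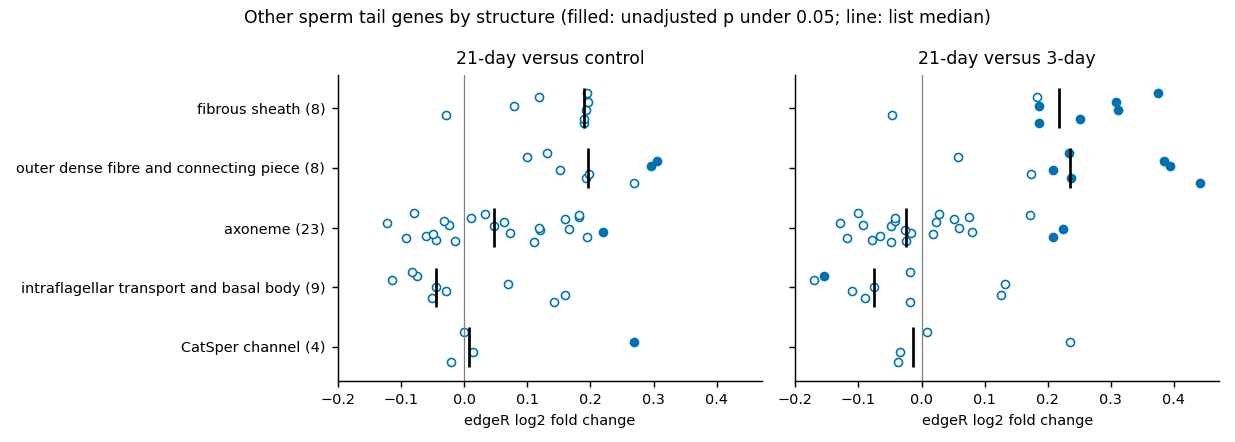
edgeR log2 fold changes (horizontal axes) of other sperm tail genes in 5 lists (vertical axis, number of genes in brackets) at 21 days against control and against 3 days, with filled points at an unadjusted p under 0.05 and a line at each list's median. Against 3 days the fibrous sheath and dense fibre lists have medians of 0.22 and 0.24, and the axoneme list has -0.025.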

How the data were processed

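RNA of 12 rat testis samples (4 groups of 3) was sequenced after ribosomal RNA depletion with a strand-marking library kit. For each library the authors deposited estimated counts and TPM values of 31715 Ensembl transcripts, beside the full and effective lengths. Per the submitters' processing notes, Trimmomatic, HISAT2 and HTSeq were used on Rnor_6.0 (rn6). No version is given in the sources used here, and the layout of the deposited tables is that of kallisto, which these notes do not name. The deposited TPM values are scaled by the authors per effective length and per library, and for the members they followed from the counts to within 0.00074%. The TPM of Stra8 and Piwil1 did not in some libraries, so class levels use CPM from the counts, scaled by TMM factors.

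The tables name no genes. Each of the 578 markers was found as the transcript, or run of neighbouring transcripts, whose estimated counts add up to the study's supplementary counts in all 12 libraries within 1 count, and all 10 members had a single solution. Counts were rounded and fitted over 31512 features with edgeR 4.0.16 in R 4.3.3 (TMM, filterByExpr, glmQLFit, glmQLFTest), each comparison on its own libraries, with Benjamini-Hochberg adjustment over the 21051 to 21663 features tested. The standard error is the log2 fold change over the root of the F statistic. DESeq2 1.42.0 and limma 3.58.1, on log2(TPM + 1) and log2(TPM + 0.1), were alternatives, beside other scalings, filters, left-out libraries and a replicate block. The fits were tested on simulated counts. Exact permutation tests are two-sided (SciPy 1.17.1).

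The members, the lists of tail genes and the tests were chosen with earlier results of these data known. Named were all 10 members, from each list up to 4 genes with the lowest p at 21 days against control, and the 3 markers most correlated with Odf1, Akap4 and Tekt1. Somatic cell markers and genes outside the marker table were not analysed here, and coordinates are given only for RefSeq promoters of GRCr8, which is not the build of the counts.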

Additional observations from a re-analysis of the deposited data

Results flagged for a closer look

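Odf1 and Akap4 lay on opposite sides of the control mean in the short and the long stress groups. For both genes every 3-day library was below the mean TPM of the control libraries, and every 14-day and 21-day library was above it. The other 375 spermatid markers had median log2 fold changes against control of -0.04 at 3 days, 0.10 at 14 days and 0.14 at 21 days. How many features share the pattern of Odf1 and Akap4 was not counted. Without control library 1, which stood apart, the control mean was 4509 TPM for Odf1, with 1 of 3 14-day libraries below it, and 1182 TPM for Akap4, with 2 of 3 14-day libraries below it, and the log2 fold change of Akap4 at 14 days against control was -0.047 (edgeR adjusted p = 0.739). Odf1 differed by 0.25 on the log2 scale between 14 and 3 days (edgeR adjusted p = 0.236) and by 0.40 between 21 and 3 days (edgeR adjusted p = 0.17). Akap4 differed by 0.21 between 14 and 3 days (edgeR adjusted p = 0.244) and by 0.34 between 21 and 3 days (edgeR adjusted p = 0.163). Each of these is itself the difference of the effects of 2 stress durations against the shared control libraries.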

How the results depend on the processing

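Of 1290 values of single members under an alternative, 1103 kept their direction and their side of an unadjusted p of 0.05, 54 lost it, 61 gained it and 72 changed sign, the largest first value among these being 0.162 in size. Libraries of 3 per group and counts down to 628 limit what can be seen. None of the members had an edgeR adjusted p under 0.05 except in the fits named next. Scaled to the other spermatid markers, 4 members passed it at 21 days against 3 days, beside 77 of 21203 features higher and 2192 lower. Without control library 2, 1 member passed it, as higher, with both later groups against control, beside 406 of 22090 features higher and 141 lower. The cause of the changes below was not tested.

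At 21 days against control 1 member passed the unadjusted criterion, and all calls under the alternatives named next were higher. The count was 5 with total count scaling and with all 12 libraries in 1 fit (8.67% and 11.3% of all features higher). It was 2 with TMM factors from outside the markers (1949 of 21106 features higher) and with at least 10 counts in every library (1890 of 19158). It was also 2 with DESeq2, Odf3 and Odf1, where 1790 of the 31512 features, not filtered for low counts, were higher. DESeq2 gave 16978 features an adjusted p there. With limma on log2(TPM + 1) it was 2 (1748 of 24613), and on log2(TPM + 0.1) it was 3 (1749 of 24613). At 21 days against 3 days, 3 became 5, all higher, with RLE factors, with no low-count filter and with all 12 libraries in 1 fit. In these fits 1960 of 21203 features, 2138 of 27750 and 9.76% were higher. At 14 days against 3 days, 6 became 3, all higher, with limma under both pseudocounts. There 1379 of 24350 features were higher on log2(TPM + 1) and 1352 of 24350 on log2(TPM + 0.1). At 21 days against 14 days, 0 became 1, as higher, with total count scaling (333 of 21051 features higher). It also became 1, as higher, with DESeq2 (404 of the 31512 unfiltered features higher, 23967 with an adjusted p). Scaled to the other spermatid markers, 2 members were lower at 3 days against control (206 of 21076 features lower). At 14 days 0 passed, and at 21 days 1 was higher and 2 lower (3.52% and 17.9% of all features). Against 3 days, 1 was higher at 14 days (442 of 21139 features higher). At 21 days 2 were higher and 3 lower (2.31% and 27.8%). Between 21 and 14 days 1 was higher (196 of 21051 features higher). With both later groups against control 1 was lower (4504 of 21663 features lower).

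Whether the replicate numbers pair the samples is not settled. The deviations of libraries of the same number correlated at -0.12 to 0.22 and in no comparison at over 0.1 in all 3 pairs. Between the 21-day and control libraries they were 0.22, 0.15 and -0.019. With 3 libraries per group such values cannot exclude a pairing. With the replicate block 6 members were higher at 21 days against control, beside 2066 of 21106 features. At 21 days against 3 days 5 were higher, beside 1837 of 21203 features. Tekt4 at 3 days against control changed sign to 0.0025 with the block.

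Each library was left out in turn. Against control 0 to 3 members were lower at 3 days (1.40% to 3.83% of all features lower). All other calls were higher, given here with the share of all features higher. They were 1 to 3 at 14 days (4.69% to 8.31%) and 0 to 3 at 21 days (5.21% to 8.21%). Against 3 days they were 2 to 6 at 14 days (5.26% to 7.37%) and 3 to 6 at 21 days (5.45% to 9.19%). Between 21 and 14 days they were 0 to 1 (1.54% to 3.67%), and with both later groups against control 2 to 6 (8.09% to 12.2%). Log2 fold changes that crossed 0 in this way at 3 days against control ran from -0.068 to 0.037 for Tekt4, -0.10 to 0.067 for Odf3b, -0.0059 to 0.098 for Odf3, -0.096 to 0.0020 for Tekt2, -0.16 to 0.0068 for Akap3 and -0.073 to 0.024 for Tekt1. At 14 days against control they ran from -0.057 to 0.044 for Tekt4, -0.047 to 0.12 for Akap4 and -0.052 to 0.021 for Tekt1, and against 3 days from -0.021 to 0.030 for Tekt4 and -0.033 to 0.050 for Tekt1. At 21 days against 14 days they ran from -0.067 to 0.10 for Odf3b, -0.038 to 0.045 for Odf3, -0.042 to 0.017 for Tekt2, -0.073 to 0.0034 for Odf3l1 and -0.047 to 0.069 for Akap3, and with both later groups against control from -0.088 to 0.019 for Tekt4.

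Other sign changes at 3 days against control were Tekt4 at 0.030, Odf3b at 0.023 and Tekt1 at 0.013 with total count scaling, 0.038, 0.020 and 0.015 with limma on log2(TPM + 1), and 0.039, 0.020 and 0.015 on log2(TPM + 0.1). There Tekt4 was also at 0.00086 with at least 10 counts in every library and at 0.0022 with all 12 libraries in 1 fit. At 14 days against 3 days Tekt4 was at -0.020 with total count scaling and with limma under both pseudocounts, and Tekt1 at 0.00080 with all 12 libraries in 1 fit and at 0.0012 with TMM factors from outside the markers. At 21 days against 14 days Akap3 was at -0.025 with limma under both pseudocounts.

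Scaled to the other spermatid markers, chosen after seeing the data, the sign changed for Tekt4 (0.046), Odf3b (0.041) and Tekt1 (0.025) at 3 days against control, for Tekt4 (-0.086), Akap4 (-0.044) and Tekt2 (-0.049) at 14 days against control, and for Tekt2 (-0.11) and Akap3 (-0.034) at 21 days against control. Against 3 days it changed for Tekt4 (-0.13) and Tekt2 (-0.049) at 14 days and for Odf3 (-0.034), Tekt2 (-0.12), Odf3l1 (-0.089) and Akap3 (-0.017) at 21 days. It also changed for Odf3b (-0.024) and Akap3 (-0.038) at 21 days against 14 days, and for Tekt2 (-0.076) and Akap3 (-0.012) with both later groups against control.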
